A study of Mus musculus with 10 samples.

Results

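Socs3, a gene of 4.26 kb on mouse chromosome 11 (gene ID 12702, span 117966079 to 117970336 of mm10), had TET2 peaks over its start site and on both sides of the gene in embryonic stem (ES) cells. A peak of 1 control library, from cells without the epitope, overlapped the start-site peaks. Socs3 was chosen by its number of TET2 regions, so those counts and the folds of its peaks describe the gene and are not tested. Its members are the peaks that overlap the gene span, or that lie within 50 kb of it with no other protein-coding gene nearer. After merging peaks that shared at least 1 bp over 8 peak lists, 21 of 79350 merged regions belonged to Socs3. The gene is 1 of 21887 protein-coding genes of the gene table.

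The study immunoprecipitated TET2 from ES cells grown on gelatin in serum with LIF, a GSK-3 inhibitor and a MEK inhibitor. Wild-type cells carry floxed Tet2 alleles (Tet2 fl/fl) and no epitope tag, knockout cells are Tet2-/-, and both were precipitated with a rabbit polyclonal antibody to the N-terminus of TET2. FLAG-TET2 cells are Tet2 fl/fl and express TET2 with a 2x-Flag tag from its own locus, parental cells are Tet2 fl/fl without the tag, and both were precipitated with FLAG M2 affinity gel. Each of the 4 groups had 2 libraries with 1 peak list each. The wild-type and FLAG-TET2 lists are called target lists, and the knockout and parental lists, from cells without the epitope, control lists. Whether replicates were separate cultures, and whether a line is a single clone, is not stated in the labels.

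SOCS3 is a feedback inhibitor of cytokine signalling. LIF binds a receptor of LIFR and gp130 (encoded by Il6st), JAK kinases attached to it phosphorylate STAT3, and STAT3 switches on Socs3. The SOCS3 protein docks on gp130, blocks the JAK kinase and recruits a ubiquitin ligase through its SOCS box, which limits the signal that keeps mouse ES cells self-renewing. TET2 oxidises 5-methylcytosine at CpG sites and has no CXXC DNA-binding domain of its own.

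The sequence at the Socs3 start site is shown because peaks of all 4 target lists lay over it. It runs from 250 bases before to 50 after the start site at 117969366, at chr11:117969317-117969616 on the minus strand (RefSeq, build GRCm38.p6, to which mm10 corresponds). The gene is therefore transcribed towards lower coordinates, and its span reaches 970 bp beyond this start site. Capitals mark the only match to the STAT motif TTCNNNGAA.

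Socs3 promoter: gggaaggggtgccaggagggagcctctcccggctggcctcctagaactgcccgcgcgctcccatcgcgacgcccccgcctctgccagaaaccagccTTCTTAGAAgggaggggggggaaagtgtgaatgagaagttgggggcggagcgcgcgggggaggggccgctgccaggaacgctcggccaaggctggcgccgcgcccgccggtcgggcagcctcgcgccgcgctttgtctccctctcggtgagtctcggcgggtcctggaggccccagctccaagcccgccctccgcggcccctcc

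The window holds 31 CpG dinucleotides, against a median of 13 in 21263 promoter windows of protein-coding genes, and 14.0% of the windows hold as many. Its G+C content was 73.3% (median 56.3%). The STAT match TTCTTAGAA, which reads the same on both strands under its pattern, starts 154 bp before the start site (117969512 to 117969520). At least 1 such match was found in 7.69% of promoter windows. The KLF/SP box GGGCGG occurred 2 times, starting 112 bp before the start site on the gene's strand and 30 bp after it on the other, and 46.2% of windows hold it. The OCT4 octamer ATGCAAAT, the ESRRB motif TCAAGGTCA, the KLF box CCACACCC, the TCF/LEF motif CTTTGAT and the E-box CACGTG have no match in these 300 bases on either strand. They occur in 1.66%, 0.334%, 3.63%, 3.22% and 7.84% of windows. None of these motifs overlapped another here, and a match is only a string of letters.

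More Socs3 regions had a peak in each target list than in any control list. Wild-type replicates 1 and 2 had a peak in 11 and 10 of the 21 regions, and FLAG-TET2 replicates 1 and 2 in 18 and 9. Knockout replicates 1 and 2 had a peak in 0 and 1 regions, and parental replicates 1 and 2 in 4 and 0. The lowest target list (9) was thus above the highest control list (4), an order that the choice of the gene by its TET2 regions favours. The lists differ widely in length, from 2261 peaks in knockout replicate 1 to 63612 in FLAG-TET2 replicate 1, and the depth behind them is unknown. Parental replicate 1 is a long control list, with 36549 peaks, close to the 38546 of wild-type replicate 1. It held peaks in 41.7% of all merged regions and in 19.0% of the Socs3 regions. Wild-type replicate 1 held peaks in 45.5% of all merged regions and in 52.4% of the Socs3 regions. The same shares were 22.0% and 47.6% for wild-type replicate 2. For FLAG-TET2 they were 77.3% and 85.7% in replicate 1, and 31.5% and 42.9% in replicate 2. For knockout they were 2.74% and 0% in replicate 1, and 14.1% and 4.76% in replicate 2. For parental replicate 2 they were 11.6% and 0%. The counts of knockout replicate 1 and FLAG-TET2 replicate 1 were thus near the shares over all regions.

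A common region has a peak in all 4 target lists and in no control list. Of the 21 Socs3 regions 7 were common, against 5.70% of all merged regions. A peak in all 4 target lists, whatever the controls, was found in 9 (background 15.0%). Anti-TET2 specific regions, with a peak in both wild-type and neither knockout list, numbered 9 (background 14.0%). Anti-FLAG specific regions, with a peak in both FLAG-TET2 and neither parental list, numbered 8 (background 12.4%). At least 1 control peak was found in 5 (background 50.7%). Since the gene was selected on such counts, nothing is read from their distance to the background. Single lists set 2 of these counts: without FLAG-TET2 replicate 2, 16 regions were anti-FLAG specific, and without parental replicate 1, 1 region had a control peak.

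**Figure D1:**
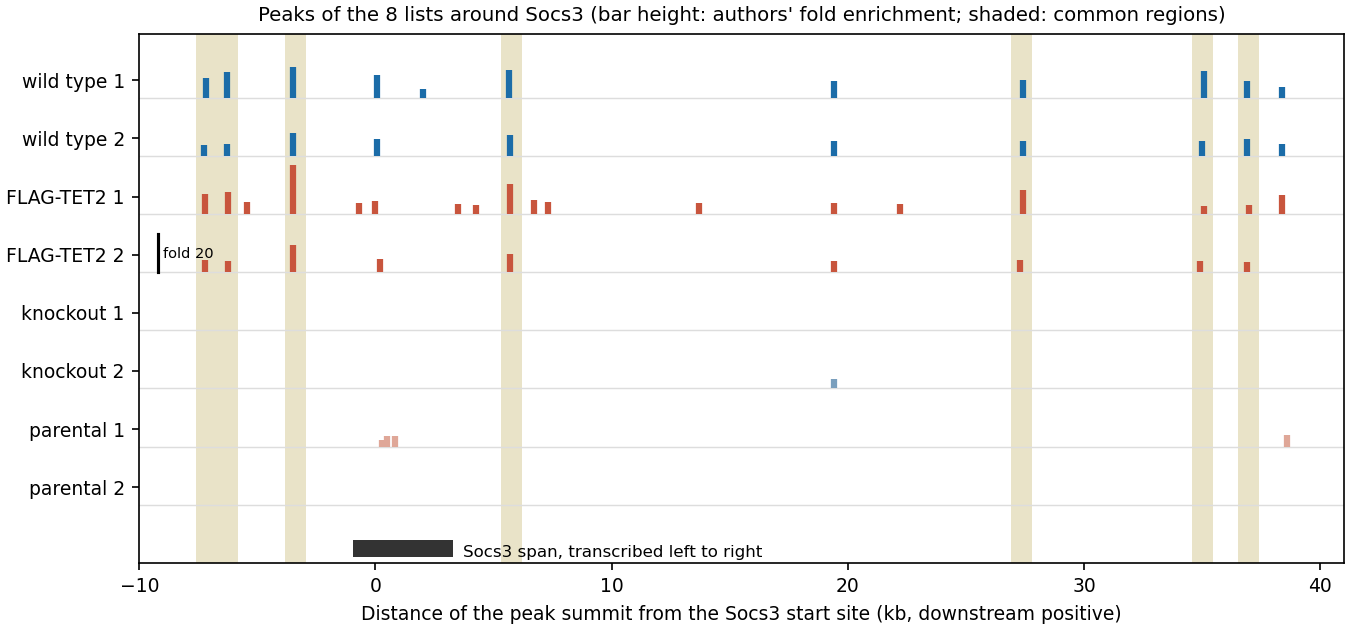
Peaks of the 8 lists around Socs3. Each bar stands at a peak's summit, by its distance in kb from the Socs3 start site (downstream positive), and its height is the authors' fold enrichment (the scale bar is a fold of 20). Shading marks the 7 common regions, 3 upstream and 4 downstream of the gene span, where the control lists are empty.

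None of the 7 common regions overlapped the gene span. Upstream of it lay 3 of them, and past its far end 4. Counted from the start site, their summits lay 7.23, 6.26 and 3.49 kb upstream and 5.68, 27.4, 35.0 and 36.9 kb downstream, so that 4 of the 7 were within 10 kb of the start site. From the first to the last, 44.1 kb were covered, and neighbouring summits were between 0.969 and 21.7 kb apart.

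The region 3.49 kb upstream (117972517 to 117972998) had the highest fold of all Socs3 regions in each of the 4 target lists. The authors' fold enrichment over their control track, a linear ratio at the summit, was 16.2 and 11.9 in wild-type replicates 1 and 2, and for FLAG-TET2 replicates 1 and 2 it was 25.9 and 14.3. Folds of different libraries have no common scale, since depth is unknown, so each is best read by its place within its own list. Here they ranked at or above 96.2%, 95.2%, 97.1% and 91.9% of the peaks of their lists. Its summits lay within 11 bp of each other over the 4 libraries, a measure that the choice of the gene did not use. Over all 4521 common regions the median range of the 4 summits was 53.0 bp, and 7.61% had a range of at most 20 bp. Over the 7 Socs3 common regions the median was 58.0 bp. The nearest control peak was 3.25 kb away, in parental replicate 1.

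The region 5.68 kb downstream (117963292 to 117963898) lay 2.18 kb past the far end of the gene span and came second in each target list. Wild-type replicates 1 and 2 gave folds of 14.8 and 10.8 there, FLAG-TET2 replicates 1 and 2 folds of 15.9 and 9.73. Both of these leading regions therefore flank the gene, 1 on each side, and each lies 2.18 kb outside the span. The summits here lay within 31 bp over the 4 libraries.

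The other upstream pair lay close together. The region 6.26 kb upstream (117975362 to 117975904) reached 13.4 and 6.18 fold with the TET2 antibody in wild-type replicates 1 and 2, and 11.7 and 6.04 fold with the FLAG gel in replicates 1 and 2 of the tagged cells. The region 7.23 kb upstream (117976360 to 117976680) reached 10.3 and 5.47 fold in the wild-type pair and 10.5 and 6.13 fold in the FLAG-TET2 pair. Among the peaks of their lists, the folds at 6.26 kb stood at percentiles 92.4 and 48.2 for the wild-type replicates, beside 84.2 and 43.0 for FLAG-TET2. Those at 7.23 kb stood at 83.3 and 30.1, and at 79.7 and 46.8. In both regions the groups overlapped by these places. Summit positions ranged over 42 and 73 bp.

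The 3 distal regions lay 27.4 to 36.9 kb downstream. The region 27.4 kb downstream (117941895 to 117942116) reached 9.34 and 7.92 fold in the wild-type pair and 12.5 and 6.34 fold in the FLAG-TET2 pair. The region 35.0 kb downstream (117934055 to 117934656) reached 13.9 and 8.04 fold in the wild-type pair and 4.38 and 6.10 fold in the FLAG-TET2 pair. The region 36.9 kb downstream (117932200 to 117932605) reached 8.70 and 8.65 fold in the wild-type pair and 4.57 and 5.49 fold in the FLAG-TET2 pair. By place within their lists, the wild-type peaks at 35.0 kb (percentiles 93.3 and 77.8) and at 36.9 kb (73.7 and 83.1) stood above the FLAG-TET2 peaks (7.88 and 45.7, and 11.2 and 33.7) without overlap. At 27.4 kb the wild-type places (77.9 and 76.9) lay between those of FLAG-TET2 (86.8 and 50.7). These differences were not tested, and a place within a list depends on the length of the list. Summits ranged over 58 bp at 27.4 kb, and over 135 and 133 bp at the outer pair.

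Ranked over the same 4521 common regions, the leading Socs3 regions stood high and others low. The region 3.49 kb upstream was at percentiles 88.6 and 94.0 of wild-type replicates 1 and 2, and at 97.9 and 96.5 of FLAG-TET2 replicates 1 and 2. The region 35.0 kb downstream was at percentiles 78.3 and 69.9 for wild type, but 0.487 and 31.0 for FLAG-TET2. The region 36.9 kb downstream was at 31.8 and 76.4 for wild type, and 0.774 and 22.0 for FLAG-TET2. In FLAG-TET2 replicate 1 these 2 peaks were thus among the weakest common ones, with −log10 q values of 3.77 and 4.03. The number of Socs3 common regions above the median fold of all common regions was 4 of 7 and 5 of 7 in wild-type and 3 of 7 and 2 of 7 in FLAG-TET2 replicates. The Socs3 folds thus lay on both sides of those of other common regions.

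**Figure D2:**
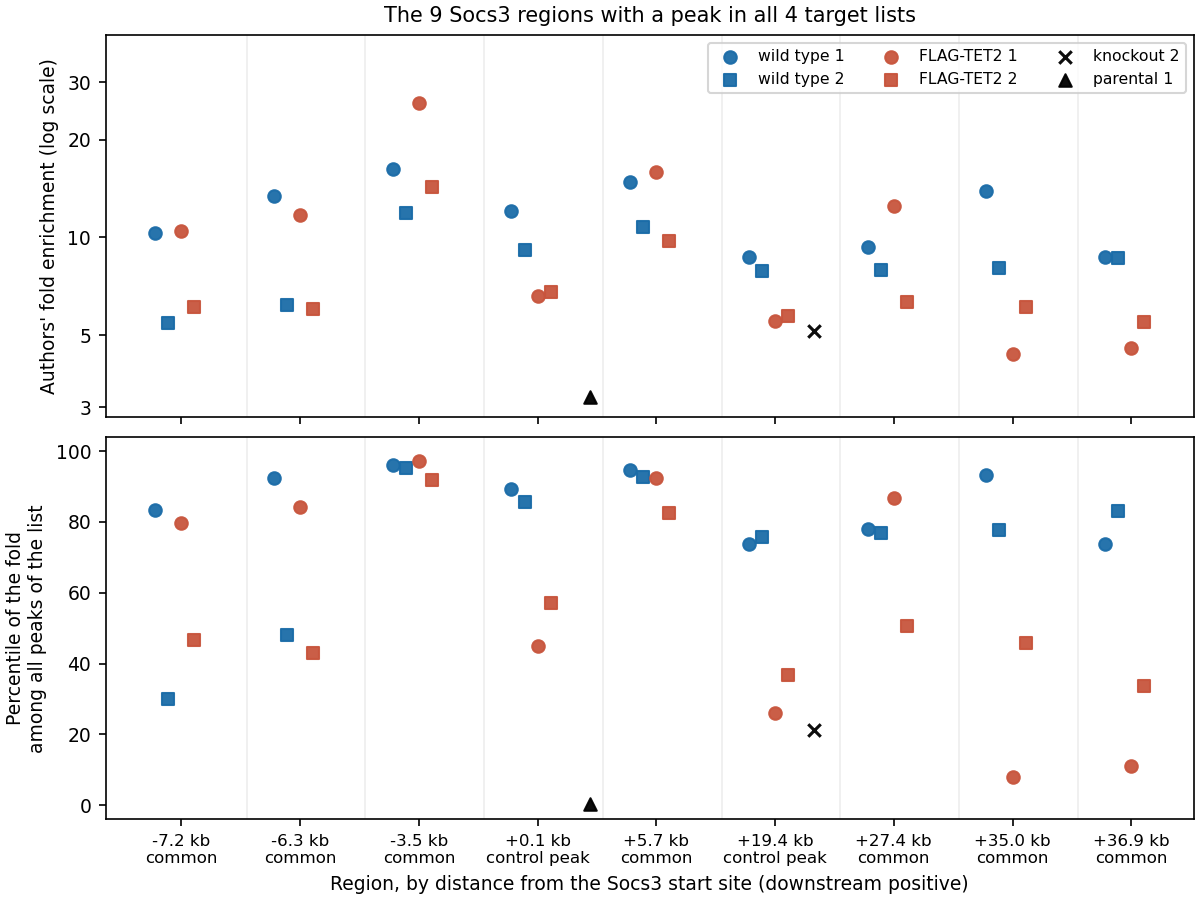
Authors' fold enrichment (upper panel, log scale) and its percentile among all peaks of the same list (lower panel) for the 9 Socs3 regions with a peak in all 4 target lists. Each point is 1 library. The region 3.49 kb upstream is highest in every target list, with folds of 11.9 to 25.9, and in the lower panel the wild-type points at 35.0 and 36.9 kb downstream lie above the FLAG-TET2 points.

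Over the 9 regions in all 4 target lists, Pearson r of the folds was 0.91 between the FLAG-TET2 replicates (Spearman rho 0.75) and 0.55 between the wild-type replicates (rho 0.50). Across the reagents r lay between 0.57 and 0.80, and rho between 0.32 and 0.73. These are descriptions across 9 sites of 1 locus that share libraries. Over all 4521 common regions r was 0.79 for FLAG-TET2 and 0.77 for wild-type replicates, and 0.57 to 0.66 across the reagents.

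The promoter window had a peak of each target list and of no control list, but the merged region around it was not common. The peaks over the start site reached 12.1 and 9.12 fold in the wild-type pair and 6.61 and 6.80 fold in the FLAG-TET2 pair. Within their own lists these folds stood at percentiles 89.4 and 85.6 for the wild-type replicates, against 44.9 and 57.2 for FLAG-TET2. The wild-type places were the higher, without overlap. This difference was not tested, and a place within a list depends on the length of the list. The start-site peaks covered 300, 291, 300 and 300 of the 300 bases printed above. Their summits lay 73 and 54 bp downstream of the start site in wild type, and 4 bp upstream and 179 bp downstream in FLAG-TET2 replicates 1 and 2. Parental replicate 1 had a peak of 201 bp (117969069 to 117969269, fold 3.24, −log10 q 3.33) that overlaps the merged region (117968974 to 117969716) but none of the 300 bases. That peak ranked at or above only 0.397% of the peaks of its list. It ran from 97 to 297 bp downstream of the start site and overlapped the start-site peaks of all 4 target lists. The FLAG-TET2 replicate 2 summit, 179 bp downstream, lay inside it. That summit and both wild-type summits lay downstream of the 300-base window. The window's lack of a control peak thus depends on where its downstream edge was set. Of the 21263 promoter windows, 17.8% had a peak of all 4 target lists, and 2.54% had such peaks and no control peak, the Socs3 window among them. Parental replicate 1 held 2 further peaks inside the gene body, 489 and 815 bp downstream of the start site, with folds of 5.53 and 5.56.

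**Figure D3:**
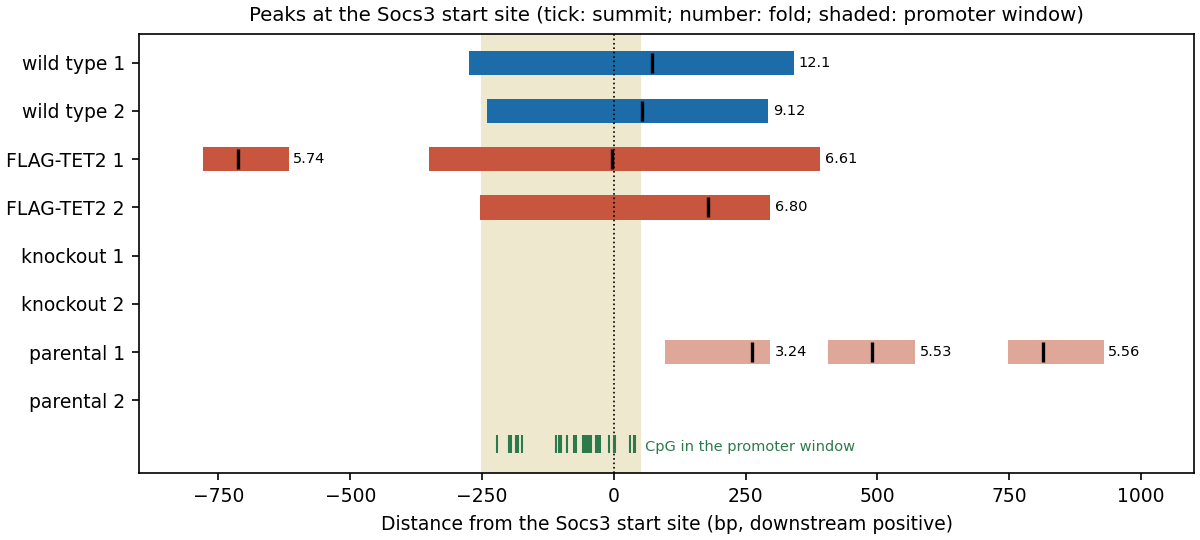
Peaks at the Socs3 start site by list. Bars span each peak in bp from the start site (downstream positive), black ticks are summits, numbers are the authors' folds, shading is the 300-base promoter window and green ticks are its 31 CpG sites. In each target list 1 peak covers the start site, a further FLAG-TET2 replicate 1 peak lies upstream of the window, and the parental peaks lie downstream of it.

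The second region with all 4 target peaks and a control peak lay 19.4 kb downstream (117949774 to 117950099). Its folds were 8.72 and 7.87 in wild-type, 5.52 and 5.75 in FLAG-TET2 and 5.14 in knockout replicate 2. The knockout peak had a −log10 q of 4.94, and its fold stood at percentile 21.2 of its list, with the wild-type peaks at 73.9 and 75.7, and those of FLAG-TET2 at 26.1 and 36.8. A region 38.4 kb downstream (117930728 to 117931132) had peaks in 3 target lists, with folds of 5.55 and 6.14 in wild-type replicates 1 and 2 and 10.1 in FLAG-TET2 replicate 1, and a peak of fold 5.91 in parental replicate 1. It is the outermost of the 21 Socs3 regions, 34.9 kb from the gene span. Of the 9 regions with all target peaks 2 (22.2%) had a control peak, against 62.1% of the 11942 such regions among all merged regions. The rest of the 9 are the common regions, and the gene was chosen by its TET2 regions. The low share is thus not read as a result.

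The 11 remaining regions were each seen in a single list (52.4% of the Socs3 regions, and 39.6% of all merged regions). FLAG-TET2 replicate 1, the longest list, accounts for 8 of them, with folds between 4.73 and 7.25 and −log10 q values between 5.18 and 10.8. These 8 lay between 5.45 kb upstream and 22.2 kb downstream of the start site. Wild-type replicate 1 alone had a peak 2.02 kb downstream, inside the gene span, with a fold of 4.58, and the other 2 are the parental peaks in the gene body. Without FLAG-TET2 replicate 1 the merged regions numbered 13.

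Just outside the rule, a region 52.5 kb from the span (117913324 to 117913593), nearer to Tha1, had wild-type peaks of 6.27 and 4.30 fold and knockout peaks of 4.99 and 9.96 fold in replicates 1 and 2. On the other side the next region (117986676 to 117987315) lay inside Pgs1, 16.3 kb from the Socs3 span, with folds of 5.99 in wild-type replicate 1, 12 and 7.47 in FLAG-TET2 replicates 1 and 2 and 7.73 in parental replicate 1. Both carried control peaks, and neither had a peak in all 4 target lists.

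Among 21887 protein-coding genes, 13.6% had at least 1 common region assigned to them, and 5 genes (0.0228%) had 7 or more. The other 4, named after their values were seen, were Arhgap26 and Etl4 with 8 each and Myo10 and Pakap with 7 each. Their spans were between 191 and 900 kb, against 4.26 kb for Socs3. Of the 7926 genes with a span of at most 10 kb, Socs3 had the most common regions, and the next 10 genes had 3 each. By regions with a control peak Socs3 ranked 62 among the same 7926 genes, with 55 others tied, and by all merged regions it ranked 3. It was thus high among short genes by these counts too.

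**Figure D4:**
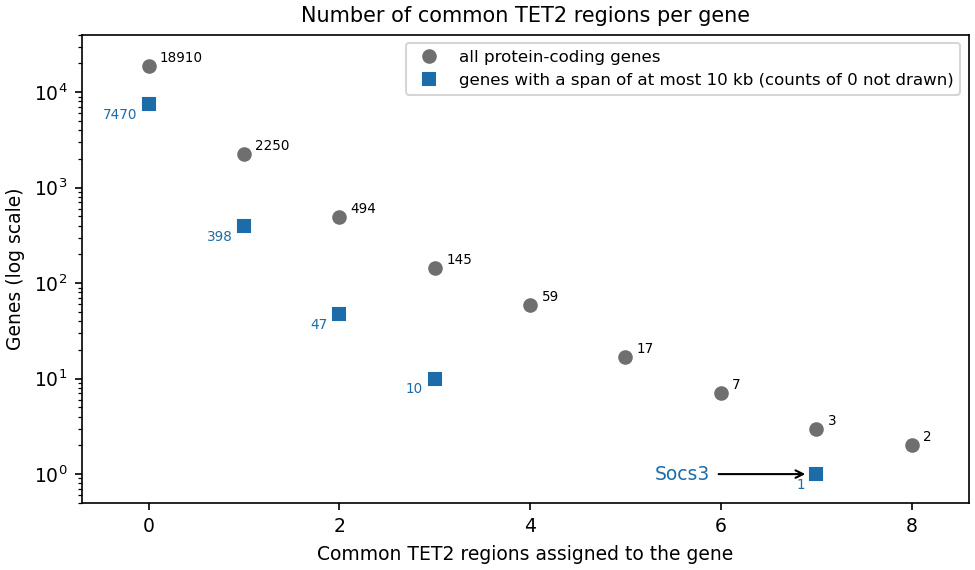
Number of protein-coding genes (log scale) by the number of common regions assigned to them, for all genes and for genes with a span of at most 10 kb. Socs3 is the single short gene with 7 common regions, and no other short gene has more than 3.

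The regions were also counted without giving them to genes. Of the 4521 common regions, 57.2% had no other common region within 50 kb of their midpoint. Only 7 had at least 6 others that near, and all 7 were Socs3 regions. Socs3 was chosen by its number of TET2 regions, and its 7 common summits lay within 44.1 kb. This count therefore restates that choice and is no separate support. A further 15 common regions elsewhere had 5 others.

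The genes whose counts over the 8 lists were most like those of Socs3 were Kdm2b, Hspb8, Sgk1, Tfcp2l1 and Cdk6. Likeness is the summed absolute difference in regions with a peak over the 8 lists, which was 7 for Kdm2b, 8 for Hspb8 and Sgk1 and 9 for Tfcp2l1 and Cdk6. Kdm2b encodes a CXXC-domain histone demethylase, Hspb8 a small heat shock protein, Sgk1 a serine/threonine kinase, Tfcp2l1 a naive-state transcription factor and Cdk6 a cell cycle kinase. They held 17 to 21 merged regions, as against 21, but 3 or 4 common regions, as against 7. In wild-type replicate 2 each had 5 to 7 regions with a peak, and Socs3 had 10. Socs3 was chosen by such counts, so its higher numbers here are not read as a result. Their spans were between 14.4 and 190 kb.

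**Figure D5:**
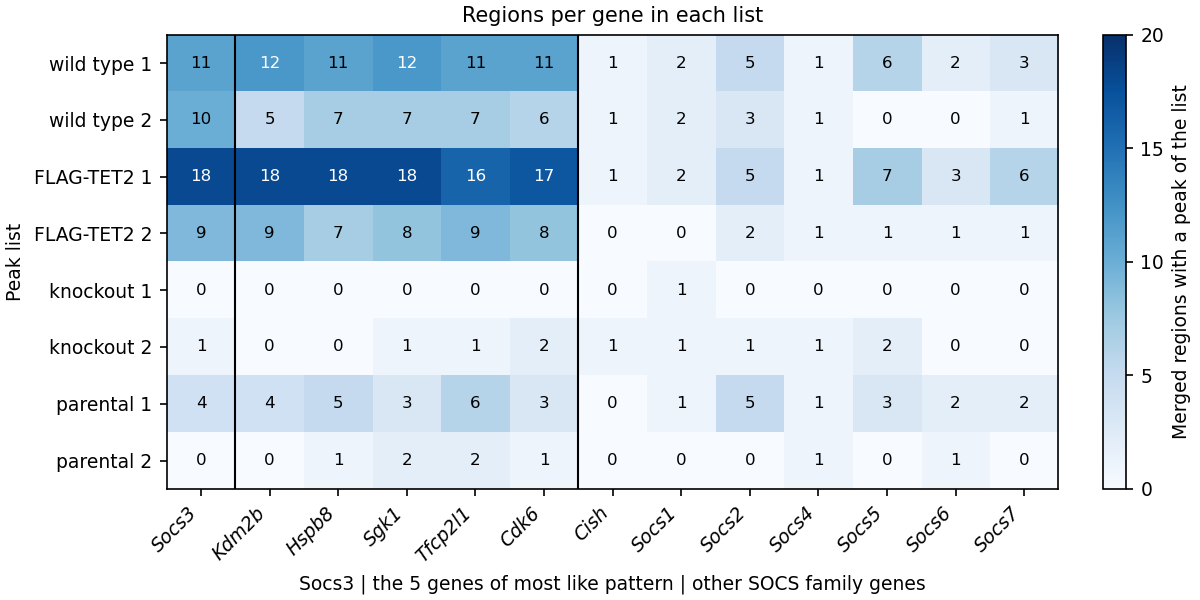
Number of merged regions with a peak of each list (rows) for Socs3, the 5 genes of most like pattern and the other SOCS family genes (columns). Socs3 has 9 to 18 regions in the target lists, and no other SOCS gene has more than 7 in any list.

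Of the 8 SOCS family genes 1, Socs3, had a common region, and 13.6% of all protein-coding genes had one. A lack of common regions in the other 7 is thus near what most genes show. All 8 were nearest gene of at least 1 merged region, as were 17169 of the 21887 protein-coding genes. Nothing is read from that count. Socs5 had 8 merged regions, 4 of them with a control peak, Socs2 and Socs7 had 7 each, Socs6 had 4, Socs1 had 3, Cish, the founding member of the family, had 2 and Socs4 had 1. Socs2 held 2 regions with peaks in all 4 target lists, both with a control peak, and Socs4 held 1 of that kind, at a promoter with peaks of all 4 target and 2 control lists. A promoter window was in the table for 4 family members, and 1 of these, Socs3, had all target peaks and no control peak there, a state of 2.54% of all windows, so nothing is read from the other 3.

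The other genes of LIF signalling had at most 2 common regions each. Of 11 listed genes 5 had any (13.6% of all genes did). The list was chosen with earlier results of these data known, so the difference is not read as a result. Lif, the ligand, had 1, its receptor genes Lifr and Il6st had 2 and 1, and the kinase genes Jak2 and Tyk2 had 1 each. Where a gene had several common regions, the one shown has the highest value of its lowest within-list fold percentile over the 4 target lists. For Lifr this region (chromosome 15, 7116600 to 7117191, in the gene span) reached 11.9 and 7.80 fold in the wild-type pair and 23.9 and 11.9 fold in the FLAG-TET2 pair. The Il6st region (chromosome 13, 112462337 to 112462859) lay 1.21 kb outside its gene, and its fold was 14.8 and 6.47 in the wild-type replicates, 14.1 and 8.43 in the FLAG-TET2 replicates. The kinase gene Jak1, the phosphatase genes Ptpn11, Ptpn2 and Ptprt, Pias3, which encodes an inhibitor of STAT3, and Stat3 itself had none. Stat3 had 2 merged regions, both with a control peak. Its promoter window, like those of Tyk2 and Ptpn11, had peaks of all 4 target lists and of no control list. That was so for 3 of the 10 promoter windows of this list, against 2.54% of all windows. As at Socs3, such a state can depend on where a window's edges were set, so nothing is read from it.

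Of 10 listed STAT3 target genes 5 had a common region (13.6% of all genes did). This list too was chosen with earlier results of these data known, so the difference is not read as a result. The transcription factor genes Tfcp2l1, Klf5 and Myc had 4, 2 and 1, and Pim1, a kinase gene, and Bcl3, which encodes an IκB family protein, had 1 each. Gbx2, Pim3, Junb, Ier3 and Klf4 had none. Of the 4 Tfcp2l1 regions, the one chosen in the same way (chromosome 1, 118625366 to 118625945), 1.98 kb from the gene, reached 12.8 and 8.01 fold in the wild-type pair and 20.4 and 13.1 fold in the FLAG-TET2 pair. Klf4, a pluripotency factor gene with 17 merged regions, had 0 common regions, where 5.70% of all merged regions were common. A control peak was found in 11 of its regions (background 50.7%), and peaks of all 4 target lists in 3 (background 15.0%). Its promoter window had peaks of all 4 target and 2 control lists. The lack of common regions at Klf4 is thus not read as a result. Of 8 promoter windows of this list, 0 had all target peaks and no control peak (2.54% of all windows). The median number of common regions was 0.5 in this list, 0 in the LIF signalling list and 0 over all genes.

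Of the 12 other protein-coding genes within 200 kb of Socs3, 4 had a common region (13.6% of all genes did). Tmc6, Afmid, Tmem235 and Pgs1 had 1 each, and the other 8 had none. The Pgs1 region (118007723 to 118008416) lay 37.4 kb from the Socs3 span, and its fold was 8.82 and 6.22 in the wild-type replicates, 16.7 and 11.4 in the FLAG-TET2 replicates.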

How the data were processed

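Build mm10 and the tools MACS2, Bowtie2, Trimmomatic, DESeq2 and DiffBind are named, without versions or roles, in the submitters' processing notes. The deposited lists, 1 per library for 8 of 10 samples (the input and IgG libraries are not analysed here), give for each peak its position and summit offset, a score that the authors derived from the q-value, a linear fold enrichment (ratio) and −log10 p and q values. The score and the p-value were not used. Peaks on 21 chromosomes were kept (2 to 34 left out per list) and merged over all lists where they shared at least 1 bp (Python 3.11.15, numpy 2.4.6, scipy 1.17.1). A region went to the nearest protein-coding span of RefSeq GRCm38.p6, ties to all. A list's highest fold in a region was used. Merging and assignment were tested on simulated data.

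No test between groups was made: the gene, the 3 gene lists (29 symbols, all matched) and the motifs were chosen with earlier results of these data known. Every Socs3 region was to be described, with the 5 genes of most like pattern, ties broken by common regions and then symbol, and list members with a common region or of the SOCS family. The genes with 7 or more common regions were added after their values were seen. Alternatives were a stricter q threshold (−log10 q of 5 or more), summit windows of 200 bp, other merging distances, other gene distances, lists of equal length and leaving out each library.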

Additional observations from a re-analysis of the deposited data

How the results depend on the processing

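No paired analysis was possible because the Socs3 counts and folds come from no test. The 21 merged, 7 common, 9 anti-TET2 specific and 8 anti-FLAG specific regions and the 5 with a control peak were recounted under 15 alternatives. With each list shortened to its 2259 leading peaks, they numbered 4, 0, 1, 0 and 0, since few Socs3 peaks rank so high. Within 10 kb of the gene span, common regions numbered 4, anti-TET2 specific 5, anti-FLAG specific 4 and those with a control peak 3. Control-peak regions also numbered 3 at a −log10 q of at least 5 and 3 with peaks merged within 200 bp. At that q threshold 7 regions were common, but only 5 of them were the same: those 35.0 and 36.9 kb downstream were lost, and the promoter region and the one 19.4 kb downstream were gained, their control peaks being under the threshold. Leaving out each library gave 13 to 21 merged regions (fewest without FLAG-TET2 replicate 1), 7 to 8 common, 9 to 10 anti-TET2 specific, 8 to 16 anti-FLAG specific (16 without FLAG-TET2 replicate 2) and 1 to 5 with a control peak (1 without parental replicate 1). The same 7 regions stayed common without each library, but leaving out a list only loosens the definition of common. This outcome is therefore no check of them. By common regions Socs3 ranked 3 among all genes and 1 among spans of at most 10 kb. Taking the mean of a list's folds in a region in place of the highest changed no fold, since no list had more than 1 peak in a Socs3 region. An absent control peak depends on the length of the control lists, whose depth is unknown.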
